A study of Mus musculus with 13 samples.

Results

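Natural killer cells made up 438 of the 33618 barcodes that were kept from a single-cell RNA matrix of 37344 barcodes. They were chosen by the transcripts of 3 surface receptors. A member had at least 2 of Ncr1 (the activating receptor NKp46), Klrb1c (the receptor NK1.1) and Klre1 (a killer cell lectin-like receptor) detected, or at least 3 unique molecular identifiers (UMIs, each marking 1 captured RNA molecule) summed over them. It also had at least 1 UMI of Nkg7, a protein of cytotoxic granule membranes. Barcodes with any UMI of Cd3e and Cd3g (CD3 chains of the T cell receptor complex), the B cell gene Cd79a or the macrophage complement gene C1qa were left out. Those with more than 10% of UMIs from mitochondrial genes were left out as well.

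Natural killer cells are lymphocytes that kill infected, stressed or transformed cells without an antigen receptor made by gene rearrangement. Activating and inhibitory receptors on their surface are weighed against each other, and a cell that tips toward activation releases granules holding perforin, which forms pores in the target membrane, and granzymes, the proteases that enter through them. They also secrete chemokines and interferon gamma, depend on interleukin 15 and on the factors T-bet and Eomes, and in the lung lie largely in the vascular bed. During maturation in the mouse they lose Cd27 and gain Klrg1.

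Lungs of C57BL/6 mice were examined. By their titles, the single-cell samples number 4 and are an ovalbumin asthma model (Asthma), a control (Control), emphysema brought about by porcine pancreatic elastase (PPE-emphysema) and a group recovering after elastase (PPE-recovery). Each came from a single mouse. The other 9 samples, Acute, Con and emphysema with 3 each, were taken as bulk RNA and were not analysed here. The matrix joins 7 libraries whose barcodes end in a number from 1 to 7, and no label ties a number to a sample, so no library was given a group and the matrix has no replicates.

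The libraries were not alike, which bears on every value given by library. Libraries 1 to 7 held 6000, 8747, 5940, 3000, 5000, 5000 and 3657 barcodes and 50552002, 79439569, 47364075, 29701569, 32617703, 30953196 and 34606626 UMIs. Their shallowest barcodes had 354, 501, 442, 5735, 3439, 3946 and 304 UMIs, so that libraries 4, 5 and 6 hold no shallow barcodes. Although every label gives lung as the tissue, natural killer cells of libraries 4, 5 and 6 had almost no transcripts of lung epithelium. The 8 epithelial markers, led by Scgb1a1, summed to 464, 1145, 1144 and 120.4 CPM in libraries 1, 2, 3 and 7 and 0, 0 and 2.77 in libraries 4, 5 and 6. In the same cells haemoglobin genes made up 10.7% of all UMIs in libraries 4, 5 and 6 and 0.000968% in libraries 1, 2, 3 and 7, and in library 4 alone they made up 33.7%. Per member the median was 0.564% in libraries 4, 5 and 6 together and 41.6% in library 4. More than 5% was found in 39 of the 188 members of libraries 4, 5 and 6. The same 153 barcode sequences occurred in more than 1 library, and 4 members carried one of them, none shared with another member. Values are therefore given for libraries 1, 2, 3 and 7 beside libraries 4, 5 and 6, and differences of tissue, mouse and preparation between these groups of libraries cannot be told apart.

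The receptor transcripts that chose the members were mostly found together. All 3 receptors were detected in 358 members, 2 in 77 and 1 in the remaining 3. The 6 members with exactly 2 receptor UMIs had medians of 19 Gzma and 6.5 Nkg7 UMIs, whereas 13 barcodes that failed the receptor limit alone had medians of 3 Gzma and 3 Nkg7 UMIs. Another 6 barcodes had the receptors and no Nkg7, with a median of 18298 UMIs and 0 Gzma UMIs. The excluded genes removed 209 otherwise qualifying barcodes, of which 146 carried Cd3e, 147 Cd3g, 57 Cd79a and 9 C1qa, and 45 carried a single UMI of these genes. Gzma, a granzyme that the rule did not use, was detected in 429 of the 438 members.

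Set beside all other kept barcodes, the members' leading genes after the rule's own were those of natural killer cells. The 20 genes with the highest ratio of CPM (UMIs of a gene per 1000000 UMIs of the same cells) included the Ly49 receptors Klra4, Klra8, Klra7, Klra3 and Klra9, the lectin-like receptors Klri2, Klrc2, Klrb1a and Klrb1f, the effectors Gzma, Prf1 (perforin), Cma1 (a mast cell protease family member) and Fasl, and the factor Eomes. The first of them, the phosphatase regulator Phactr3, was at least 166 times higher in every library with 20 or more members, and Gzma at least 84.7 times. Since cells were chosen by their own transcripts, these ratios describe the members and test nothing. Of 14 T cell markers 4 were at 0 in the members, among them the excluded Cd3e and Cd3g, and the most abundant was Trbc1, which natural killer cells are known to transcribe without rearrangement. Of the B cell, macrophage and neutrophil marker lists, 1, 1 and 2 genes were at 0. Those of the B cell and macrophage lists were the excluded Cd79a and C1qa, which the rule itself fixed at 0.

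The share of natural killer cells among kept barcodes differed between libraries by more than counting error. In libraries 1, 2, 3 and 7 there were 63, 106, 37 and 44 members, or 1.31, 1.39, 0.721 and 1.33% of kept barcodes. Libraries 4, 5 and 6 had 18, 108 and 62, or 0.602, 2.21 and 1.27%. Library 5 was highest (exact 95% binomial interval 1.82 to 2.66%) and its interval lay above that of every other library, while libraries 3 and 4 were lowest, with intervals of 0.508 to 0.993% and 0.357 to 0.949%. Libraries 1, 2, 6 and 7 did not differ beyond their intervals. All intervals here cover counting error only and say nothing of differences between mice.

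The order of the libraries depended on what the members were counted against. Pooled over libraries, the share was 1.20% in libraries 1, 2, 3 and 7 (1.06 to 1.36%) and 1.47% in libraries 4, 5 and 6 (1.27 to 1.70%). These intervals overlap, and the order rested on library 5, without which the second share was 1.02%. As a share of natural killer, T and B cells together it was 8.57% (7.58 to 9.64%) and 4.31% (3.72 to 4.95%), the other way round, with single libraries from 4.33 to 13.9% and from 2.80 to 7.56%, and with 1515 B cells found in libraries 1, 2, 3 and 7 and 3693 in libraries 4, 5 and 6. Among barcodes of at least 6000 UMIs, a depth that every library reached, the shares were 0.552% and 1.53%, with 3.33% in library 5 beside 0.603% and 1.20% in libraries 4 and 6. The members' own median depth was 4510.0 UMIs in libraries 1, 2, 3 and 7 and 6200.5 in libraries 4, 5 and 6.

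**Figure D1:**
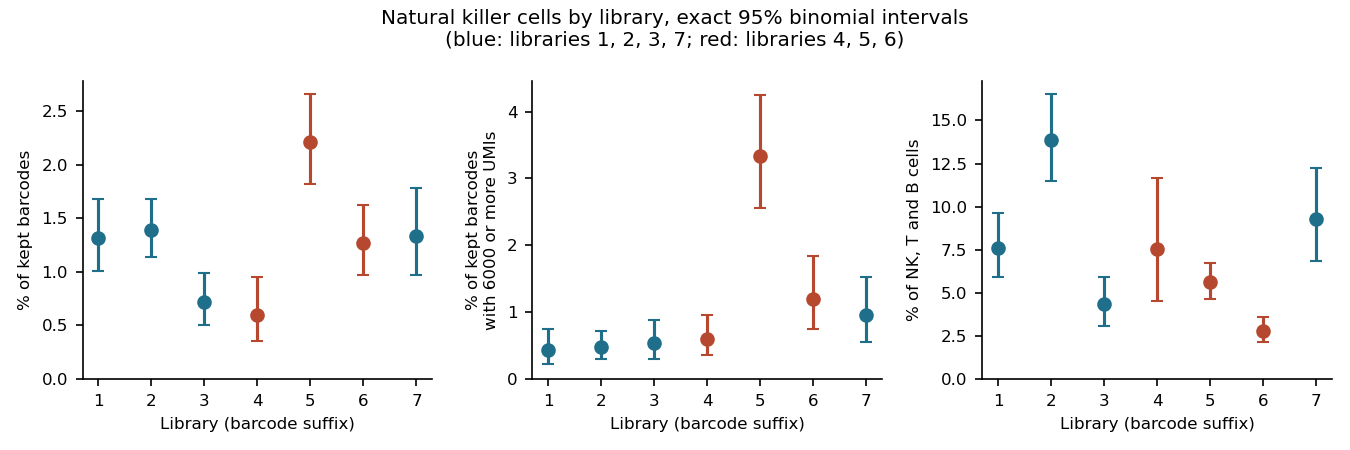
Percent of natural killer cells in each library (x axis, barcode suffix), of all kept barcodes, of kept barcodes with 6000 or more UMIs, and of natural killer, T and B cells together; points are shares and lines exact 95% binomial intervals, with libraries 1, 2, 3 and 7 in blue and 4, 5 and 6 in red. Library 5 stands highest on the first measures at 2.21% and 3.33%, and library 2 on the last at 13.9%.

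Ncr1 and Klrb1c were among the transcripts that chose the members, so that their levels across libraries are a description only. Ncr1 (chr7:4337724-4345164, GRCm38) stood at 608, 568, 408 and 567 CPM in libraries 1, 2, 3 and 7 and 403, 625 and 641 in libraries 4, 5 and 6. Klrb1c (chr6:128778485-128789215) had 638, 651, 531 and 932 CPM in libraries 1, 2, 3 and 7 and 449.6, 764 and 855 in libraries 4, 5 and 6. The ranges of the library groups overlapped for both genes. Library 4, with 18 members and the most haemoglobin, was lowest for both. With haemoglobin, mitochondrial and ribosomal genes left out of the totals (here called the reduced totals), it stood at 779.6 and 870.0 CPM, and library 3 was lowest with 543 and 707. Klrk1 (the activating receptor NKG2D), which the rule did not use, was the most abundant activating receptor pooled over all members, though Klrb1c was above it in libraries 3 and 7. Klrk1 had 662, 733, 508 and 924 CPM in libraries 1, 2, 3 and 7 and 625, 1379.7 and 1634 in libraries 4, 5 and 6. Its pooled level was 1.90-fold higher in libraries 4, 5 and 6, under the fold of 2 required for a call, and the ranges of the library groups overlapped. With the reduced totals its level was 2.10-fold higher, and it was called. Klrd1 (CD94, the partner chain of the NKG2 receptors) had 943 CPM over all members, and the NKG2 chains Klrc2 and Klrc1 had 589.8 and 218. Read as 3' tags, these UMI levels are not set per transcript length. The lectin-like receptor genes named here other than Klrg1 lie together on chromosome 6, from Klrb1a (chr6:128609227-128623533) to Klra2 (chr6:131219223-131247362).

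Transcripts of the killing machinery were abundant in the members of every library. Gzma (chr13:113093825-113100981) had 13114, 11960.1, 8480.4 and 10658 CPM in libraries 1, 2, 3 and 7 and 6271, 9335 and 7910.2 in libraries 4, 5 and 6. Ccl5, a chemokine stored in granules, had 16332, 17417, 16784 and 19044 CPM in libraries 1, 2, 3 and 7 and 8222, 15047 and 11248 in libraries 4, 5 and 6. Both were lowest in library 4, or in library 6 with the reduced totals. The groups of libraries overlapped for Gzma and not for Ccl5, whose pooled fold of 1.33 was under 2. Prf1 had 1206, 1259, 1059 and 1736 CPM in libraries 1, 2, 3 and 7 and 695, 1004 and 1151 in libraries 4, 5 and 6. Among the adaptors, Tyrobp (DAP12) and Fcer1g (the Fc receptor gamma chain), which carry signals of activating receptors, had 2446 and 2054 CPM over all members and ranged over libraries from 1699 to 2609.7 and from 1501 to 2372. With each cell thinned to 3000 UMIs, Prf1 was detected in 90.7% of members (94.7% unthinned) against 0.402% of B cells, which should lack it (0.806% unthinned). Thinning left out 42 members and 235 B cells of less depth, and median depths were 5123 and 5186 UMIs. Granzyme transcripts are alike in sequence, and their counts may share reads.

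Both factors of natural killer cell development were present. Eomes had 324, 218, 227 and 369 CPM in libraries 1, 2, 3 and 7 and 128, 383 and 366 in libraries 4, 5 and 6. Tbx21 (T-bet) had 154, 161, 135 and 256 CPM in libraries 1, 2, 3 and 7 and 123, 176 and 147 in libraries 4, 5 and 6. Neither separated the libraries. Zeb2, a repressor that accompanies terminal maturation, had 531 CPM pooled over libraries 1, 2, 3 and 7 and 686 over libraries 4, 5 and 6. Itga2 (the integrin CD49b) was at 219 CPM and Itga4 was the most abundant gene of the homing list with 905.

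Immediate early genes differed between the library groups. They are switched on within minutes of stimulation or handling of a cell. A gene was called where the ranges of its CPM over libraries 1, 2, 3 and 7 and over libraries 4, 5 and 6 did not overlap and the pooled levels differed at least 2-fold, and 6193 genes with at least 50 UMIs over the members were compared. Of these, 252 genes (4.07%) were called higher in libraries 1, 2, 3 and 7 and 63 (1.02%) lower, with a median log2 difference over all genes of 0.10. Of the 16 immediate early and stress genes on the list, 14 reached 50 UMIs, and 12 of those were called higher and 0 lower, with a median log2 difference of 2.59. No test was run, since libraries are not replicates of any group. Leaving out library 5 raised the genes called higher to 406, and leaving out library 4 raised those called lower to 146, while the immediate early count was 12 whichever library was left out. It was 10 with barcodes of at least 6000 UMIs and 3 with cells thinned to 1000 UMIs, where 26 genes in all were called higher.

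Junb (chr8:84974484-84978718), an AP-1 subunit, had 1460.1, 1396, 1614 and 1732 CPM in libraries 1, 2, 3 and 7 and 117, 166 and 166 in libraries 4, 5 and 6. All 4 libraries of the first group lay far above the other 3, and the pooled difference was 9.52-fold (95% counting interval 8.24 to 11). Fos (chr12:85473890-85477273), its partner in AP-1, had 107, 236, 185 and 330.1 CPM in libraries 1, 2, 3 and 7 and 0, 7.94 and 2.77 in libraries 4, 5 and 6. The fold was 39.6 (19.0 to 99.3), with no Fos UMI in library 4. Dusp1, a phosphatase that turns off MAP kinases, had 488, 433, 347 and 357 CPM in libraries 1, 2, 3 and 7 and 11.7, 6.62 and 36.1 in libraries 4, 5 and 6. Again the groups did not overlap. Nr4a1, an orphan nuclear receptor induced by receptor signals in lymphocytes, had 251, 144, 281 and 50.5 CPM in libraries 1, 2, 3 and 7 and 0, 1.32 and 2.77 in libraries 4, 5 and 6. Only 2 UMIs were found in libraries 4, 5 and 6, and the counting interval of the ratio ran from 31.1 to 943. With each member thinned to 3000 UMIs, Junb was detected in 88.0% of cells in libraries 1, 2, 3 and 7 and 32.4% in libraries 4, 5 and 6, and Fos in 32.7% and 2.66%. Unthinned, the shares were 89.2% and 58.0% for Junb and 38.4% and 3.19% for Fos.

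Jun, Fosb, Ier2, Egr1, Jund, Nfkbia, Zfp36 and Btg2 completed the genes called, with pooled folds from 2.24 for Btg2 to 48.2 for Fosb. Zfp36 alone of the 12 lost its call when members with at least 3 endothelial, 10 macrophage or 20 neutrophil UMIs were left out. The chaperones Hspa8 and Dnajb1 were not called, at 1.15- and 1.53-fold, and Hspa1a and Hspa1b did not reach 50 UMIs. Outside the list, the nuclear receptor Nr4a2 had 287, 294, 447 and 225 CPM in libraries 1, 2, 3 and 7 and 0, 7.94 and 5.55 in libraries 4, 5 and 6. Rgs1, which dampens chemokine receptor signals, had 535, 330.5, 439 and 734 CPM in libraries 1, 2, 3 and 7 and 17.5, 9.27 and 13.9 in libraries 4, 5 and 6. Tnfaip3 (A20), a feedback inhibitor of NF-kappaB, was 14.8-fold higher (10.7 to 20.9).

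Promoters of the 4 genes with which the difference was described are shown because these genes moved together. They are the 250 bases before the annotated start from RefSeq, build GRCm38.p6, written 5' to 3' on the strand of the gene, with capitals for TGACG or its reverse complement CGTCA, the core letters of the cyclic AMP response element. Fos lies after chr12:85473640-85473889, plus strand. Nr4a1 follows chr15:101266596-101266845, plus strand. Dusp1 has chr17:26508473-26508722, minus strand, and Junb has chr8:84978749-84978998, minus strand.
Fos: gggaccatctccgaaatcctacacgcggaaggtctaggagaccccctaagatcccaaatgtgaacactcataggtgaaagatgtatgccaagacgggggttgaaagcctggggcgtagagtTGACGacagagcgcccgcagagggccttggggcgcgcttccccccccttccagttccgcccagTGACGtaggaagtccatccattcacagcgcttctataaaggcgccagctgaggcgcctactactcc
Nr4a1: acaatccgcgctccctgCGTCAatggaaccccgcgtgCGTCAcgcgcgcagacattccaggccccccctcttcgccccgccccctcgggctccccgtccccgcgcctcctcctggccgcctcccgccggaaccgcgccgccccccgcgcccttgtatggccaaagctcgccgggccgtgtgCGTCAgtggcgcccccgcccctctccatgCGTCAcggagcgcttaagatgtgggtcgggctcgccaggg
Dusp1: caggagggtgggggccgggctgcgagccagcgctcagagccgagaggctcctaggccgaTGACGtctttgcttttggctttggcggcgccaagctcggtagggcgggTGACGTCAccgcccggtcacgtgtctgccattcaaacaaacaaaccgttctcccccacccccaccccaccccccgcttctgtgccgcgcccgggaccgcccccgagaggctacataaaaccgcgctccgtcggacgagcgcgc
Junb: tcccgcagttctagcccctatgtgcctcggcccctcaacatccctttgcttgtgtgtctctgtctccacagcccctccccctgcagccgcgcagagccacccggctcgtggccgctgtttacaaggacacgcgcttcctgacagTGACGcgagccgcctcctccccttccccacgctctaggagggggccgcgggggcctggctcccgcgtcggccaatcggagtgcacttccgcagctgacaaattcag
The window of Nr4a1 holds 4 such matches, that of Dusp1 3, that of Fos 2 and that of Junb 1. The match nearest to the start begins 66 bases before it in Fos and 40 bases before it in Nr4a1. On either strand, TGACG occurs in the windows of 7 of the 13 immediate early and stress genes found in the table, and in those of 19.8% of all 27025 genes. The longer palindrome TGACGTCA, which contains TGACG, occurs in 2 of the 13, Dusp1 and Btg2, and in 1.77% of genes. A match of letters does not show that a factor binds there.

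T and B cells of the same libraries showed the difference in immediate early genes as well. T cells were barcodes with at least 2 UMIs over Cd3d, Cd3e and Cd3g, and B cells those with at least 2 of Cd79a, in each case with none of the members' receptors or of the other lineages' excluded genes. By the same rule, 14 of the 16 genes were called higher in T cells, where 10.8% of 10318 genes were, and 10 in B cells, where 6.85% of 11358 were. Genes called lower made up 1.9% in T cells and 3.47% in B cells. The pooled fold of Junb was 11.9 in T cells and 6.93 in B cells beside 9.52 in natural killer cells, and that of Fos was 19.1 and 9.64 beside 39.6. Of the 252 genes called higher in natural killer cells, 156 (61.9%) were also called in T cells and 89 (35.3%) in B cells, which is 14.0% of the T cell and 11.4% of the B cell calls. Cells of 3 kinds from 1 library share their preparation and are not separate evidence.

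The factor Irf8 and some effector transcripts were also higher in libraries 1, 2, 3 and 7. Over all genes compared, 4.07% were called higher and 1.02% lower, or 2.97% and 1.86% with the reduced totals. Among 20 transcription factors compared, 1 was called higher, which is near the share over all genes, and 0 lower. With the reduced totals 2, Tcf7 and Klf12, were called lower. Of 7 cytokines and chemokines 3 were called higher, or 2 with the reduced totals. Irf8 (chr8:120736358-120756694), a factor required for natural killer cell responses to virus, had 2051, 1537, 1722 and 2043 CPM in libraries 1, 2, 3 and 7 and 210.2, 718 and 555 in libraries 4, 5 and 6. The lowest library of the first group exceeded the highest of the other by more than either interval, 1432 CPM at the lower bound of library 2 against 781 at the upper bound of library 5, and the pooled fold was 2.95 (2.72 to 3.20). The fold of Irf8 was 2.83 in T cells, where it was not called, and 0.688 in B cells, where the level was higher in libraries 4, 5 and 6. Ccl4 (MIP-1 beta), a chemokine released on activation, had 1497, 1022, 659 and 1115 CPM in libraries 1, 2, 3 and 7 and 298, 203 and 178 in libraries 4, 5 and 6, a fold of 5.16 (4.53 to 5.90). Ifng had 124, 83.6, 46.2 and 62.1 CPM in libraries 1, 2, 3 and 7 and 11.7, 33.1 and 33.3 in libraries 4, 5 and 6, a fold of 2.68 (1.84 to 3.97). Cxcr4, a homing receptor for bone marrow, had 421, 300.1, 293 and 287 CPM in libraries 1, 2, 3 and 7 and 40.9, 75.5 and 36.1 in libraries 4, 5 and 6, a fold of 5.40 (4.23 to 6.98). None of these 4 genes overlapped between the groups of libraries.

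Gzmb, Serpinb9 (an inhibitor that shields the killer from granzyme B), Fasl and Ccl3 were called as well, but their calls ended with the reduced totals. Their folds went from 2.11 to 1.91 for Gzmb, from 2.16 to 1.95 for Serpinb9 and from 2.19 to 1.98 for Fasl, just under 2. Ccl3 went from 2.80 to 2.54, with library 4 then at 271 CPM and library 3 at 251. Gzmb had 1116, 1461, 1121 and 1429 CPM in libraries 1, 2, 3 and 7 and 607, 699 and 466 in libraries 4, 5 and 6, a fold of 2.11 (1.94 to 2.30). At 3000 UMIs a cell it was detected in 85.1% (79.5 to 89.6) of members of libraries 1, 2, 3 and 7 and 61.2% (53.8 to 68.2) of libraries 4, 5 and 6, or in 88.8% and 74.5% unthinned. In the other 14 of the 16 granule genes compared, Gzma and Prf1 among them, no call was made. With the reduced totals, 181 genes (2.97%) were called higher and 113 (1.86%) lower of 6089, so that the share called higher fell from 80.0% to 61.6%, and the median log2 difference of all genes moved from 0.10 to -0.05.

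Of the 13 activating receptors compared, 0 were called higher and 2 lower in libraries 1, 2, 3 and 7, or 4 lower with the reduced totals, which added Klrk1 and Klrb1f. Over all genes, 4.07% were called higher there and 1.02% lower, or 2.97% and 1.86% with the reduced totals. By either total, 0 of 7 inhibitory receptors and 0 of 7 Ly49 receptors were called. Cd226 (DNAM-1), an adhesion receptor that aids killing, had 40.1, 22.8, 7.70 and 27.2 CPM in libraries 1, 2, 3 and 7 and 52.6, 72.8 and 69.4 in libraries 4, 5 and 6, 2.81-fold higher in the latter (1.87 to 4.33). Slamf6 had 13.4, 17.1, 7.70 and 7.77 CPM in libraries 1, 2, 3 and 7 and 29.2, 23.8 and 49.9 in libraries 4, 5 and 6, 2.52-fold higher (1.40 to 4.72). Of 11 early maturation genes compared, 2, Spry2 and Emb, were called higher in libraries 1, 2, 3 and 7 and 1, Ctla2a, lower, and with the reduced totals Emb lost its call and Tcf7 was called lower. Spry2, an inhibitor of receptor kinase signals, had 438, 255, 408 and 322 CPM in libraries 1, 2, 3 and 7 and 87.6, 111 and 125 in libraries 4, 5 and 6, a fold of 3.02 (2.5 to 3.67). Emb had 251, 180.4, 204 and 159 CPM in libraries 1, 2, 3 and 7 and 140.1, 91.4 and 91.6 in libraries 4, 5 and 6, a fold of 2.01 (1.62 to 2.5). Ctla2a, a cysteine protease inhibitor found in less mature natural killer cells, had 454, 473, 324 and 338 CPM in libraries 1, 2, 3 and 7 and 514, 1212 and 1670.3 in libraries 4, 5 and 6, and was 3.01-fold higher in libraries 4, 5 and 6 (2.73 to 3.32). At 3000 UMIs it was detected in 91.0% (85.9 to 94.6) of members there and 46.2% (39.2 to 53.2) in libraries 1, 2, 3 and 7, or in 98.4% and 50% unthinned. In B cells of the same libraries, Ctla2a was at 56.4 CPM in libraries 1, 2, 3 and 7 and 997 in libraries 4, 5 and 6.

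Transcripts of red cells, platelets, airway epithelium and endothelium moved with the library groups, whereas sums of monocyte and neutrophil markers overlapped between them. The part of any of these in the differences was not tested. The largest folds among genes lower in libraries 1, 2, 3 and 7 were of red cell genes, led by the haemoglobin chain Hbb-bs with 3.34, 1.90, 3.85 and 0 CPM in libraries 1, 2, 3 and 7 and 182707, 28641 and 43382 in libraries 4, 5 and 6, and of platelet genes, where Pf4 had 6.68, 3.80, 0 and 0 CPM in libraries 1, 2, 3 and 7 and 99.3, 340.3 and 386 in libraries 4, 5 and 6. Erythroid markers, 7 of 8 called lower, summed to 160.4, 108, 158 and 132 CPM in libraries 1, 2, 3 and 7 and 339961, 63132 and 90003 in libraries 4, 5 and 6. Scgb1a1, a secretory protein of airway epithelium, had 388, 881, 897 and 93.2 CPM in libraries 1, 2, 3 and 7 and 0, 0 and 0 in libraries 4, 5 and 6, from 837 UMIs in 203 members with at most 26 in 1 cell. Endothelial and fibroblast markers, led by Cldn5, summed to 725, 909.8, 131 and 225 CPM in libraries 1, 2, 3 and 7 and 17.5, 68.9 and 94.3 in libraries 4, 5 and 6. Monocyte and macrophage markers, led by Lyz2, summed to 1309.7, 3288, 5754 and 722 CPM in libraries 1, 2, 3 and 7 and 1495, 1053 and 1052 in libraries 4, 5 and 6, and 1 cell held 636 of the 2857 Lyz2 UMIs. That list includes Ccr2 and Ly6c2, detected in 50.5% and 43.8% of members and called in the maturation comparison below. Its sum is therefore not one of other cells alone. Neutrophil markers, led by S100a9, summed to 6.68, 877, 34.7 and 50.5 CPM in libraries 1, 2, 3 and 7 and 10819.9, 192 and 4961 in libraries 4, 5 and 6. After 29 members with at least 3 endothelial, 10 macrophage or 20 neutrophil UMIs were left out, 24 of them in libraries 1, 2, 3 and 7, the endothelial and fibroblast sums were 126, 152, 154 and 61.9 in libraries 1, 2, 3 and 7 and 22.4, 68.9 and 93.7 in libraries 4, 5 and 6. Without these cells 166 genes (3.0%) were called higher and 74 (1.34%) lower of 5534, of which 139 and 49 were among the calls with them, Cldn5 lost its call, and 11 immediate early genes kept theirs. With the same members left out, the epithelial sums were 510, 1299, 1290 and 107 CPM in libraries 1, 2, 3 and 7. They were 0, 0 and 2.93 in libraries 4, 5 and 6. The erythroid sums were then 364972, 63132 and 94716 CPM in libraries 4, 5 and 6, so that both still followed the library groups. Haemoglobin genes resemble each other closely, and reads may be split among them.

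**Figure D2:**
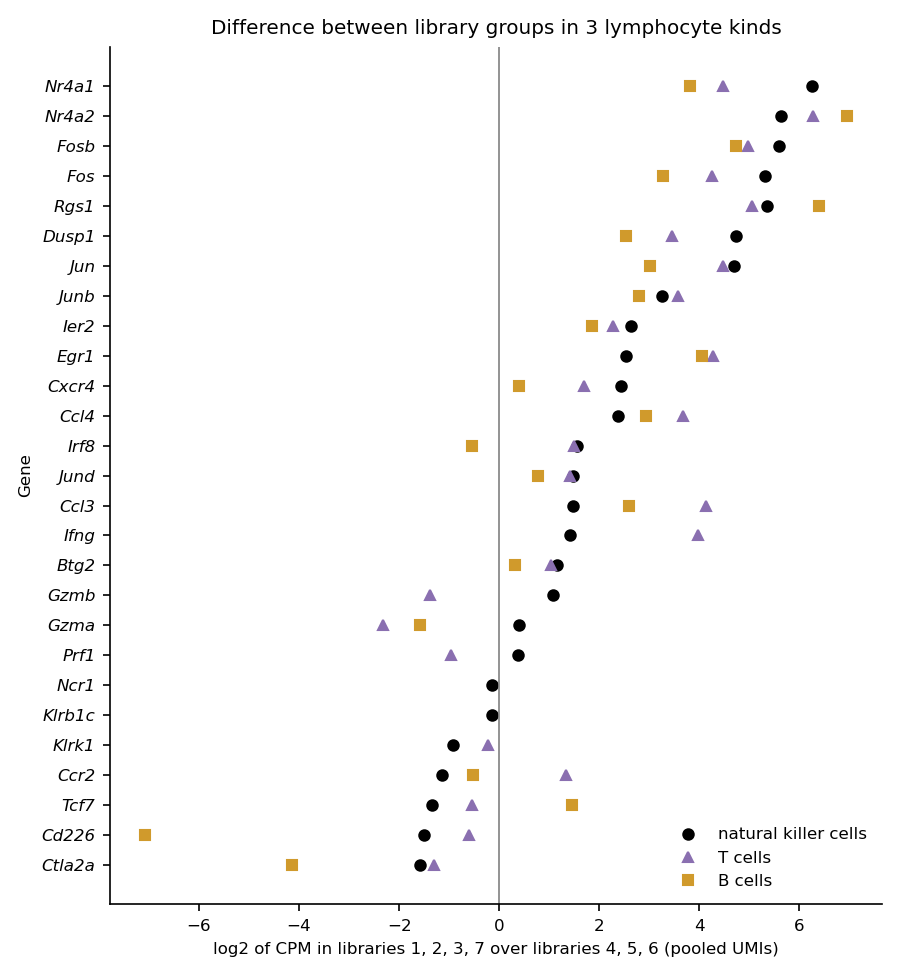
Difference between library groups for named genes (rows) in natural killer cells (circles), T cells (triangles) and B cells (squares); the x axis is log2 of pooled CPM in libraries 1, 2, 3 and 7 over libraries 4, 5 and 6, with counts under 3 UMIs set to 3 and T or B cell points left out under 50 UMIs. Immediate early genes lie right of 0 in all 3 kinds of cell, whereas Irf8 and Gzmb lie right of 0 in natural killer cells, with the B cell point of Irf8 and the T cell point of Gzmb to the left.

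CD8 T cells without the members' receptors were set beside the members. They were 686 barcodes with at least 2 CD3 UMIs, a Cd8a or Cd8b1 UMI and no UMI of Ncr1, Klrb1c or Klre1, so that a lack of receptor transcripts in them was partly fixed by their choice. Few of them carried granzymes, with Gzma detected in 7.87% and Gzmb in 10.1%, beside 2.69% and 0.211% of B cells. The choice also left out cells with the receptors, Nkg7 and Cd3e or Cd3g. Of these, 143 had no Cd79a or C1qa UMI, and 97 of the 143 had Cd8a or Cd8b1. The 143 together held more Gzma, at 3717 CPM against 305, and more Prf1, at 195 against 49.1. Levels in the 97 alone are not given. The folds of granule genes given here are therefore against CD8 T cells of low granule content. A gene was called where the CPM differed at least 2-fold in the same direction in each of the 6 libraries with 20 or more cells of both kinds, which leaves out library 4. Of 9223 genes with at least 50 UMIs over both, 243 (2.63%) were called higher in natural killer cells and 99 (1.07%) lower. Because transcripts chose both kinds of cell, these calls describe the cells and test nothing. Median depth over all libraries was 7328 UMIs in CD8 T cells and 5123 in natural killer cells.

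Prf1 was at 1206, 1259, 1059, 1004, 1151 and 1736 CPM in natural killer cells of libraries 1, 2, 3, 5, 6 and 7 and at 48.6, 55.4, 36.6, 56.0, 52.1 and 67.5 in CD8 T cells. The groups were far apart in each library, 17.9- to 28.9-fold. Gzma, at 38.3, 426, 87.2, 1007, 5.58 and 91.7 CPM in CD8 T cells, varied most among them, and the fold ran from 9.27 in library 5 to 1416 in library 6. Gzmb was not called, since the fold in library 5 was 1.49. Of 18 granule genes compared, 7 were called higher and 0 lower, Nkg7 of the members' rule included. Nkg7, of which every member had to hold a UMI, and Ccl5, both known in CD8 T cells too, were 2.64- to 7.18-fold and 4.50- to 19.6-fold higher, from 690.4 and 2245 CPM over all CD8 T cells. Cma1 had no UMI in CD8 T cells and 371, 379.9, 204, 286, 236 and 396 CPM in natural killer cells, at least 48.9-fold higher against a floor of 3 UMIs in each library.

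Of 8 Ly49 receptors, 6 were called higher and 0 lower, and of 14 activating receptors 10 were called higher and 1, Slamf6, lower. Among inhibitory and lectin-like receptors 5 of 9 were called higher and 0 lower, and among adaptors 6 of 17 were called higher and 1 lower. The receptor lists include genes of the rule. Klra8 (Ly49H, which binds a cytomegalovirus protein) had 551, 507, 408, 704, 644 and 664 CPM in natural killer cells and fewer than 3 UMIs in the CD8 T cells of each library. Klrk1 was 9.57- to 103-fold higher, Fcer1g 17.0- to 47.7-fold and Tyrobp 13.6- to 64.1-fold. By contrast Klrd1, known in memory CD8 T cells too, was 3.58- to 5.40-fold higher. Cd247, the CD3 zeta chain that both kinds of cell use, was not called, at 120.2 CPM in natural killer cells and 146 in CD8 T cells.

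Of 20 transcription factors 6 were called higher and 1 lower. Eomes was 5.12- to 12.4-fold higher, Tbx21 3.96- to 39.5-fold, Zeb2 6.46- to 26.6-fold and Irf8 14.4- to 132-fold. Tcf7 (TCF-1), a factor of naive and memory T cells, was 4.09- to 18.4-fold lower. Il7r, the receptor that keeps naive T cells alive, was 17.9- to 59.0-fold lower and had fewer than 3 UMIs in natural killer cells of 2 libraries. Ccr7 and Bcl11b were also lower, with 5.32 and 6.08 CPM over all members against 439 and 314. Trbc2 was 6.60- to 10.1-fold lower, whereas Trbc1 was not called, at 331 CPM against 689. Of 14 T cell markers, some of which chose the CD8 T cells, 11 were called lower.

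The windows of Ncr1 and Gzmb are shown as a receptor and a granule gene of the members, with capitals for TGTGGT or its reverse complement ACCACA, the core letters that RUNX factors recognise. Ncr1 follows chr7:4337465-4337714, plus strand, the first of the pair of starts listed for it, and Gzmb has chr14:56262335-56262584, minus strand.
Ncr1: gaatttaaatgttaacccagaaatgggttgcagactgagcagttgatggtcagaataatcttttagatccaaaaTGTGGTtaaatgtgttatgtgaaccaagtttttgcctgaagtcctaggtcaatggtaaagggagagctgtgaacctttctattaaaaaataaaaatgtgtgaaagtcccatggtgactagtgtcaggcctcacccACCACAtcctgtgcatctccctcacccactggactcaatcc
Gzmb: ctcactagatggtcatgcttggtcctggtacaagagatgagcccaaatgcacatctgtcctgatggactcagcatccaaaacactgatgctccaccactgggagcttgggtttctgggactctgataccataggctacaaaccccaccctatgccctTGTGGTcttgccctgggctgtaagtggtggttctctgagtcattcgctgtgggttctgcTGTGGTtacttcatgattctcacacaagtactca
Each window holds 2 matches, and those nearest to the start begin 41 bases before it in Ncr1 and 34 in Gzmb. TGTGGT, which does not overlap TGACG in its letters, occurs on either strand in the windows of 10 of 17 granule genes found, of 0 of 13 immediate early and stress genes and of 15.9% of all genes. Such matches describe the letters alone.

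**Figure D3:**
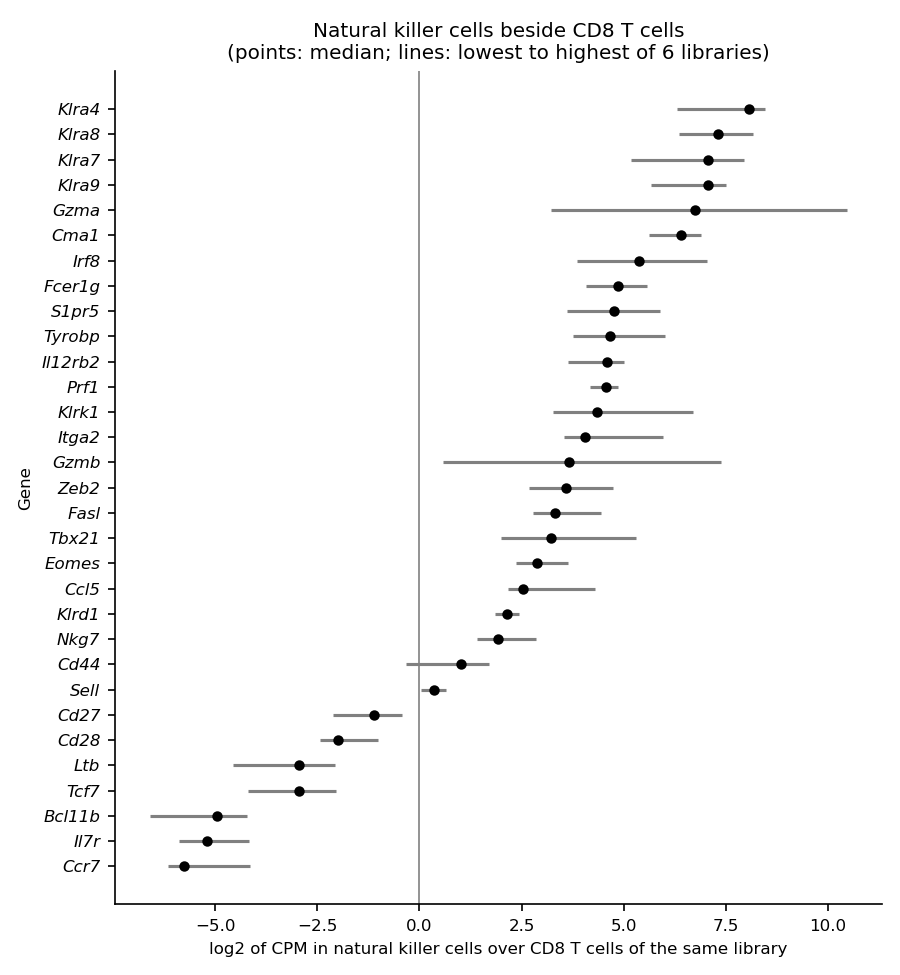
Natural killer cells beside CD8 T cells for named genes (rows); the x axis is log2 of CPM in natural killer cells over CD8 T cells of the same library, points are medians and lines run from the lowest to the highest of 6 libraries, with counts under 3 UMIs set to 3. Ly49 receptors, Cma1 and Prf1 lie far to the right in all 6, Gzma and Gzmb have the longest lines, and Ccr7, Il7r and Bcl11b lie far to the left.

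Members at opposite ends of maturation were compared by the markers that change during it. A Klrg1 UMI and no Cd27 UMI were found in 164 members, 99 of them in libraries 1, 2, 3 and 7, and a Cd27 UMI and no Klrg1 UMI in 80, of which 35 were in those libraries. Both were found in 45 and neither in 149. Median depth was 4999.5 UMIs in the Klrg1 cells and 5843 in the Cd27 cells. A gene was called where the level differed at least 2-fold in the same direction in libraries 1, 2, 3 and 7 and in libraries 4, 5 and 6. Of 4312 genes with at least 50 UMIs over both, 47 (1.09%) were called higher in Klrg1 cells and 20 (0.464%) in Cd27 cells, Klrg1 and Cd27 themselves among them. These counts fell to 28 and 11 without library 2. The split rests on transcripts of the same cells, so the values are a description.

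Some cytotoxic and homing genes were higher in Klrg1 cells. Of 16 granule genes 3 were called higher in them and 0 lower, and of 18 homing and adhesion genes 3 were called higher and 1, Ccr2, lower. Gzmb was at 1819.8 against 523 CPM in libraries 1, 2, 3 and 7 and 895 against 208 in libraries 4, 5 and 6 (3.48- and 4.29-fold). Prf1 was at 1697 against 710.0 CPM in libraries 1, 2, 3 and 7 and 1289 against 566 in libraries 4, 5 and 6 (2.39- and 2.28-fold). Cma1 was at 500.0 against 88.8 CPM in libraries 1, 2, 3 and 7 and 373 against 95.3 in libraries 4, 5 and 6 (5.63- and 3.92-fold). All 3 were higher in Klrg1 cells in both groups of libraries, as was Cx3cr1, a chemokine receptor of patrolling cells, at 161 against 23.4 CPM in libraries 1, 2, 3 and 7 and 211 against 32.8 in libraries 4, 5 and 6 (6.89- and 6.44-fold). S1pr5, which guides exit from marrow and nodes, was at 161 against 46.7 CPM in libraries 1, 2, 3 and 7 and 225 against 101 in libraries 4, 5 and 6 (3.44- and 2.22-fold). Zeb2 (2.85- and 2.66-fold), Ly6c2 (5.48- and 3.33-fold), the adhesion molecule Mcam (5.06- and 4.20-fold) and the Ly49 gene Klra3 (2.20- and 3.60-fold) were called too. Of the 11 late maturation genes 7 were called in this direction, Klrg1 included, and 0 in the other. Gzma, at 2.37- and 1.84-fold, was not called.

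Cd27 cells had more transcripts of early stages. Tcf7 was at 84.1 against 9.58 CPM in libraries 1, 2, 3 and 7 and 146 against 23.2 in libraries 4, 5 and 6 (8.78- and 6.29-fold), given as Cd27 cells against Klrg1 cells. Emb (embigin), an adhesion partner that falls with maturation, was at 612 against 61.3 CPM in libraries 1, 2, 3 and 7 and 223 against 18.5 in libraries 4, 5 and 6 (9.98- and 12.0-fold). Ltb (lymphotoxin beta) was at 192 against 21.1 CPM in libraries 1, 2, 3 and 7 and 143 against 27.8 in libraries 4, 5 and 6 (9.09- and 5.14-fold). Each was higher in Cd27 cells in both groups of libraries. Xcl1, a chemokine for cross-presenting dendritic cells, was at 752 against 59.4 CPM in libraries 1, 2, 3 and 7 and 208 against 88.1 in libraries 4, 5 and 6 (12.7- and 2.37-fold). Cd28 (5.65- and 3.75-fold), Thy1 (3.62- and 2.44-fold), Ccr2 (6.64- and 2.17-fold) and the factor Myb (2.29- and 7.06-fold) followed. Of the 9 early maturation genes compared, 6 were called on this side, Cd27 included, and 0 on the other. Eomes, Tbx21 and Ncr1 were not called on either side, nor were any of the 14 immediate early and stress genes compared.

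**Figure D4:**
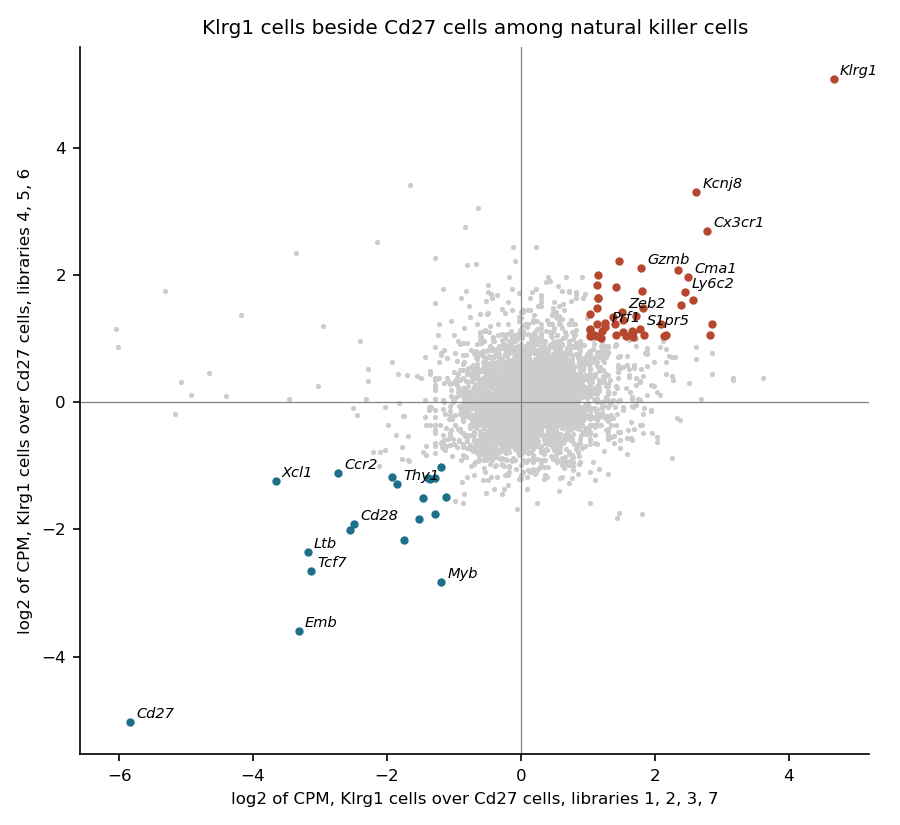
Each point is a gene of natural killer cells; the axes are log2 of CPM in Klrg1 cells over Cd27 cells, in libraries 1, 2, 3 and 7 (x) and in libraries 4, 5 and 6 (y), with counts under 3 UMIs set to 3. The 47 genes called higher in Klrg1 cells (red) lie at upper right and the 20 called higher in Cd27 cells (blue) at lower left, with Klrg1 and Cd27, which made the split, at the extremes.

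Ly49 receptors, which recognise major histocompatibility complex class I molecules and are known to be switched on in varied combinations from cell to cell, were spread unevenly among members. Over the 6 genes Klra1, Klra3, Klra4, Klra7, Klra8 and Klra9, the median member had 3 detected, and 345 members (78.8%) had 2 to 4. None of the 6 was found in 29 members and all of them in 1. At 3000 UMIs a cell, over 396 members, the median was 2, and 74.2% had 2 to 4. The most widespread, Klra9, was then in 52.5% (47.5 to 57.5) of members and the least, Klra1, in 16.4% (12.9 to 20.4). In B cells, at that depth, Klra4 was found in 0.201% beside 49.5% of members. Among members with Klra4, 60.7% also had Klra8, against 36.5% of those without it. Among those with Klra1, 12.3% had Klra3, against 24.8% of those without. These pairs were picked from 15 after their values were seen. Pooled over all members, levels ran from 765 CPM for Klra4 to 137 for Klra1. The genes resemble each other in sequence, so that reads of one may have been counted for another.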

How the data were processed

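Single-cell RNA libraries were made with the Chromium 3' kit. Per the submitters' notes and methods, Cell Ranger 3.1.0 (STAR, mm10) aligned the reads, which were thinned to even out depth across libraries, and the authors deposited UMI counts per gene and barcode, not normalized and from before their own cell filter. Here barcodes with at most 10% mitochondrial UMIs were kept. UMIs were summed per library and kind of cell and written as CPM. Intervals were exact at 95% (Poisson for counts, Clopper-Pearson for shares), and folds used a floor of 3 UMIs. No test was run, because no label ties the 7 libraries to samples, so that none is a replicate of a group, and UMI intervals cover counting error only. Members and gene lists were chosen with earlier results of these data known. Of 303 genes on 25 lists, 301 were found by symbol. Genes of the lists were counted, and those above 100 CPM or called could be named, as could the 15 called genes of largest fold in each direction and the 20 leading genes. Other genes named, such as Nr4a2, Rgs1, Tnfaip3, Myb, Cd28 and Ccr7, follow from these rules or were chosen after their values were seen. Positions are GRCm38 from GENCODE M21, which holds 31011 of the 31053 identifiers. Doublets were called by Scrublet (scanpy 1.11.5, expected rate 0.05) and left out in an alternative only. Alternatives changed the barcode filters, the receptor and exclusion rules, the fold, the minimum UMIs, the totals and the libraries. The rules for calling genes in the 3 comparisons were run on simulated counts with known folds and counting error only. Such counts cannot show how often differences between mice or preparations lead to a call. Python 3.11.15, numpy 2.4.6, scipy 1.17.1, pandas 2.3.3 and matplotlib 3.10.9 were used.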

Additional observations from a re-analysis of the deposited data

How the results depend on the processing

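Alternatives gave 188 values for 9 results that answer a comparison. Of these values, 140 stayed within their tolerance (1.5 times a count, or the spread of counting error for a share) and 48 moved. Counts and shares have no sign, so that none of these values could be marked as reversed. With barcodes of at least 6000 UMIs, there were 168 members, 0.552% of barcodes in libraries 1, 2, 3 and 7, 549 genes higher than in CD8 T cells and 28 higher in Klrg1 cells. Thinned to 1000 UMIs, there were 264 members, 0.711% and 0.980% in the library groups, 26 genes higher, 3 of them immediate early, and 8 lower in libraries 1, 2, 3 and 7, 51 higher and 25 lower than in CD8 T cells, 2 higher in Klrg1 cells and 0 in Cd27 cells, and the log2 of Cma1 in Klrg1 over Cd27 cells turned to -0.075. Too few UMIs remain at that depth for the 50 UMIs required. A mitochondrial limit of 5% gave 1.71% and 1.77% of barcodes, and none gave 1.04% in libraries 1, 2, 3 and 7. All 3 receptors gave 0.897% there, and 10 excluded genes gave 1.21% in libraries 4, 5 and 6. With no excluded gene, the shares were 1.70% and 2.29%, and the counts were 97 lower in libraries 1, 2, 3 and 7, 60 lower than in CD8 T cells, 72 higher in Klrg1 cells and 65 in Cd27 cells.

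At least 200 UMIs left 70 and 23 genes between library groups and 10 and 3 between Klrg1 and Cd27 cells. A fold of 1.5 gave 479 and 115, 217 and 90, and 465 and 200 beside CD8 T cells. Leaving out haemoglobin, mitochondrial and ribosomal genes gave 113 lower. Leaving out each library in turn gave 1.09 to 1.35% and 1.02 to 1.74% of barcodes, the order of the pooled shares turning without library 5, 202 to 406 higher and 48 to 146 lower between library groups, 243 to 288 and 99 to 118 beside CD8 T cells, 28 to 50 in Klrg1 cells and 11 to 18 in Cd27 cells. Some alternatives were added after the data were seen. Leaving out members with at least 3 endothelial, 10 macrophage or 20 neutrophil UMIs gave 166 higher. Libraries 5 and 6 alone gave 412 and 235 beside CD8 T cells. The maturation calls were 356 and 160 in libraries 1, 2, 3 and 7 alone and 219 and 84 in libraries 4, 5 and 6 alone. The causes were not tested. Of single genes named, 945 of 1162 values stayed within the spread of counting error between library groups and 555 of 635 in the maturation comparison. Beside CD8 T cells, 605 of 660 medians stayed between the lowest and highest log2 fold of the 6 libraries. That range always holds the median when a library is left out. No paired analysis was possible because no library could be tied to a sample or a replicate number. Library 4 rests on 18 members, and genes under 50 UMIs over the members were not compared.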

Other observations

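Cells with the receptors and Nkg7 that also held Cd3e or Cd3g were not members, and those without Cd79a or C1qa are described here. There were 143 of them, with a median of 6059 UMIs. Trac was detected in 115, Cd8a or Cd8b1 in 97 and Cd4 in 3, and 16 had a single CD3 UMI. Ccl5 was at 15265 CPM (15029 to 15504), beside 15265 in natural killer cells. Prf1 was at 195 CPM (169 to 224), beside 1155 in natural killer cells and 49.1 in CD8 T cells. Klre1, which chose many of them, was at 650.1 CPM, and Ncr1 at 102. Klra8 was at 64.1 CPM from 67 UMIs in 17 cells.

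At least 2 of 7 division genes (Mki67, Top2a, Birc5, Ube2c, Cdk1, Ccnb2 and Rrm2) were detected in 17 members (3.88%, 2.28 to 6.14%), of which 3, 2, 2, 6, 4, 0 and 0 were in libraries 1 to 7. Cells with at least 2 of 5 genes of type 1 innate lymphoid cells, which are relatives that stay in tissue (Cxcr6, Itga1, Cd200r1, Tnfsf10 and Inpp4b), numbered 22 (5.02%, 3.17 to 7.51%), with 11 in library 2. Of these, 12 also had an Eomes UMI, which such cells are known to lack, and 10 had at least 3 endothelial UMIs, 8 of them in library 2. The origin of the endothelial UMIs was not tested.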
